A study of Mus musculus with 2 samples.

Results

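Heat shock proteins and chaperonins fold newly made proteins, hold unfolded ones in solution and refold or hand on damaged ones. HSP70 proteins bind exposed hydrophobic stretches in an ATP cycle that J-proteins start and nucleotide exchange factors reset, HSP90 proteins finish the folding of kinases and receptors, and the ring-shaped chaperonins TRiC (in the cytosol) and HSP60 (in mitochondria) enclose the client. Resting T cells that meet antigen enlarge and raise protein synthesis before they divide, and many of these genes are known to increase at that time. Heat shock factor 1, encoded by *Hsf1*, also induces a subset of them when proteins misfold. The genes described here are 45 members of these families, given as a list by name of HSP90, HSP70, HSP110, HSP60, TRiC, J-protein, prefoldin and co-chaperone genes with the heat shock factors. Each was represented by its brightest probe set among those annotated to exactly 1 gene symbol. Of the 45, 42 were measured this way, among 19938 genes, and 41 were detected, among 13222 detected genes. *Hsp90ab1*, *Hsf1* and *Hspa1b* had no such probe set and were not analysed here, except through a probe set that *Hspa1b* shares with *Hspa1a*, and *Bag2* was measured but did not exceed background in either array (7.05 after ND αCD4 and 7.39 after isotype control).

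The data come from 2 microarrays of CD3+CD4+ T cells sorted from pancreatic lymph nodes (PLN) of BDC mice, an NOD line that carries the rearranged TCR of a diabetogenic CD4+ T cell clone. One array holds cells of BDC mice that received ND αCD4, a nondepleting antibody to CD4 (clone YTS177). The other holds cells of BDC mice that received an isotype control Ab (clone 2A3). All mice were 8 weeks old and the cells were taken at 48 hours. The labels give a dose of 1 mg. It lies at the top of the range that the methods give for YTS177 and below the range they give for 2A3. PLN of 3 mice were pooled for a sort according to the methods. With a single array for either treatment there is no replicate check on any difference, no test was run, and no p value is given. In a bulk sort of this kind, fewer cells of a type and less RNA per cell cannot be told apart.

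Levels are log2 array signals. The log2 ratio of a gene is its level after ND αCD4 minus its level after isotype control. Each probe set has its own brightness, so a signal is compared between the arrays for the same gene and not between genes. Background was set from receptor genes of smell and pheromone sensing, which T cells are not known to use, at the 95th percentile of their probe sets. A gene above it in 1 array or both was called detected. This limit was 7.56 in the ND αCD4 array and 7.64 in the isotype control array. T cell genes were close in both, with log2 ratios from -0.09 to 0.09 over 7 markers. *Cd4* had 13.48 after ND αCD4 and 13.38 after isotype control. Markers of other cells were mixed. Above background in at least 1 array were 3 of 6 macrophage and monocyte markers (the brightest *Cd68*, with 9.40 after ND αCD4 and 9.17 after isotype control), 2 of 6 dendritic cell markers and 4 of 6 neutrophil markers, while *Csf1r*, *Adgre1*, *Itgax*, *Flt3* and *Ly6g* were not. Of the 4 neutrophil markers, 1 exceeded background in both arrays. All 5 measured stromal and endothelial markers exceeded it in both, with log2 ratios from -0.17 to 0.10. The brightest was *Pecam1*, with 11.97 after ND αCD4 and 11.87 after isotype control. Detected in at least 1 array were 2 of 2 measured red blood cell markers and 2 of 3 measured pancreatic markers. All 5 measured B cell markers were detected, with log2 ratios from 0.01 to 0.29. The highest ratio, that of *Cd79a*, rests on signals at the floor (7.64 after ND αCD4 and 7.35, below background, after isotype control). *Cd79b* had 10.44 after ND αCD4 and 10.34 after isotype control. Both CD8 T cell markers had higher levels after ND αCD4, with *Cd8a* at 10.39 after ND αCD4 and 9.67 after isotype control, and a summed linear signal of 4984 after ND αCD4 and 3478 after isotype control. Of 5 natural killer cell markers 2 were detected, and they went opposite ways. *Klrd1* had 8.19 after ND αCD4 and 7.34, below background, after isotype control, a bound of at least 1.46-fold higher against background. *Eomes* had 11.41 after ND αCD4 and 11.72 after isotype control, and *Ncr1* did not exceed background. The part of these cells in the values below was not tested.

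Folding genes of several families were lower after ND αCD4, while the J-proteins and the heat-inducible HSP70 genes lay near 0. Of the 41 detected genes, 35 had a log2 ratio below 0 (85.4%, against 52.7% of all detected genes) and 6 had one above 0. Their median log2 ratio was -0.18, against -0.01 over all detected genes. With a size rule of 1.5-fold, 2 of the 41 were lower, *Hsph1* and *Hspd1*, where the same rule took 1.01% of all detected genes, and none was higher, where it took 0.212%. A smaller rule of 1.2-fold, chosen after the values were seen, took 16 of the 41 as lower, or 39.0%, against 5.79% of all detected genes, and none as higher, against 2.85%. The background share was no larger among bright genes. Among genes with a mean signal of at least 11, the smaller rule took 13 of 21 chaperone genes, and 4.91% of all 2585 genes of that brightness.

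**Figure D1:**
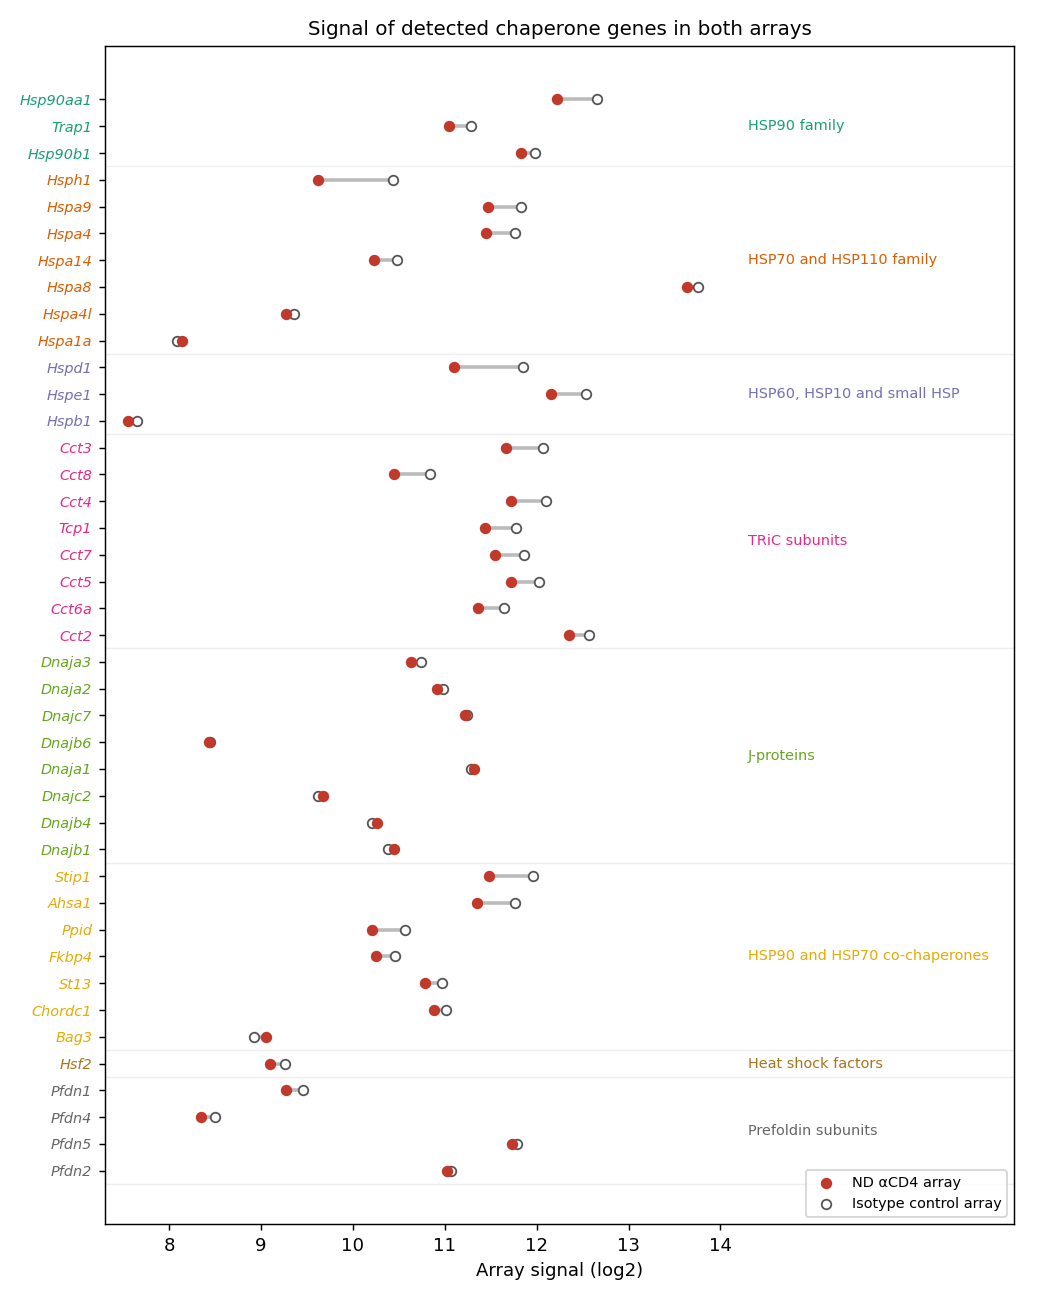
Array signal (log2, horizontal axis) of the 41 detected chaperone genes, grouped by family, in the ND αCD4 array (red) and the isotype control array (open), 1 array each, with the pair of points of a gene connected. The red point lies left of the open one in 35 genes, and the points are farthest apart for *Hsph1* (9.62 after ND αCD4, 10.43 after isotype control) and *Hspd1* (11.10 after ND αCD4, 11.85 after isotype control).

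The promoters of the chaperone genes are shown because heat shock factor 1 binds inverted GAA units and the Myc and Max factors bind E-boxes, and because genes with and without these letters can be set side by side. Windows of 300 bases, 250 before and 50 after each annotated transcript start, were taken from RefSeq (GRCm38.p6) for 35 of the 45 genes, 33 of them detected. A heat shock element of 2 units was searched as GAANNTTC or TTCNNGAA, of 3 units as GAANNTTCNNGAA or TTCNNGAANNTTC, and the E-box as CACGTG, on both strands, and 3-unit elements contain 2-unit ones. The stretches below read 5′ to 3′ on the strand of the gene and lie before one of its annotated transcript starts, with matches in capitals.

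*Hspe1*, an element of 4 units, chr1:55088039-55088096, plus strand: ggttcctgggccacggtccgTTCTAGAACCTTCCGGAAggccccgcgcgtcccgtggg
*Hsph1*, a 2-unit element and an E-box, chr5:149636316-149636389, minus strand: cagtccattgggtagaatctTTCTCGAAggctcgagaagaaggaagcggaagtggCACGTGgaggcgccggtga
*Dnajb6*, a 3-unit element, chr5:29735832-29735884, plus strand: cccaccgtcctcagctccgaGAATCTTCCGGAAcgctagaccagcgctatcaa
*Hspa1a*, a 2-unit element, chr17:34972233-34972280, minus strand: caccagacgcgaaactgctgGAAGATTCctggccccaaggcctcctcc
*Hspb1*, 2 elements of 2 units, chr5:135887782-135887849, plus strand: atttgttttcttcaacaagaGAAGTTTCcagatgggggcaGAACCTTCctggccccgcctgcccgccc
*Cct5*, a 2-unit element, chr15:31601853-31601900, minus strand: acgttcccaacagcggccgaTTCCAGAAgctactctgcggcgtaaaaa

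*Hspd1* and *Hspe1* are neighbours that are transcribed away from each other, and the printed *Hspe1* stretch, read on the other strand, is also the element of *Hspd1* at positions -144 to -127 from one of its annotated starts. The printed *Hspa1a* stretch is identical in *Hspa1b*. The *Hsph1* stretch is followed, downstream of the start, by a 3-unit element that is not printed. *Dnajb6* carried a 3-unit element as well.

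The mitochondrial chaperonin stood at the low end. *Hspd1* encodes HSP60, the barrel that folds proteins imported into mitochondria, and had a signal of 11.10 in the ND αCD4 array and 11.85 in the isotype control array. It was 1.68-fold lower after ND αCD4 (log2 ratio -0.75), at rank 68 from the lowest among the 13222 detected genes. A second *Hspd1* probe set gave a log2 ratio of -0.89. *Hspe1* encodes HSP10, the lid of the same barrel. Its signal was 12.15 in the ND αCD4 array and 12.54 in the isotype control array, 1.30-fold lower, and its other probe set gave a log2 ratio of -0.37 beside -0.38. Both genes of this chamber were thus lower after ND αCD4, and the log2 ratio of *Hspd1* minus that of *Hspe1* was -0.37.

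The other mitochondrial members lay on the same side. *Hspa9*, the mitochondrial HSP70 that pulls proteins through the inner membrane, had 11.47 after ND αCD4 and 11.82 after isotype control, a log2 ratio of -0.35. *Trap1*, the mitochondrial HSP90, had 11.04 after ND αCD4 and 11.28 after isotype control, a log2 ratio of -0.24. *Dnaja3*, a mitochondrial J-protein, had a log2 ratio of -0.10. All 5 mitochondrial members were thus below 0, with a median of -0.35. Another 13 chaperones and proteases of mitochondria were detected, a list that includes the exchange factor *Grpel1* and the proteases *Lonp1* and *Clpp*. All 13 had a log2 ratio below 0, against 52.7% of all detected genes, and their median was -0.07. None reached 1.2-fold, a rule that took 5.79% of all detected genes as lower. The lowest of the 13 was *Phb2*, a prohibitin of the inner membrane, at -0.26.

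*Hsph1*, which encodes HSP105, an exchange factor and holdase of the HSP110 group, had the lowest log2 ratio of all the chaperone genes. Its signal was 9.62 in the ND αCD4 array and 10.43 in the isotype control array, 1.76-fold lower (log2 ratio -0.82), at rank 51 from the lowest among the detected genes. The other HSP110 genes differed less. *Hspa4*, also an exchange factor for HSP70, had 11.45 after ND αCD4 and 11.77 after isotype control, a log2 ratio of -0.31, and *Hspa4l* had a log2 ratio of -0.08. *Hspa14*, a ribosome-associated HSP70, was at -0.24.

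The main cytosolic HSP70 genes were close to 0. *Hspa8*, the constitutive HSP70, had 13.63 in the ND αCD4 array and 13.75 in the isotype control array, a log2 ratio of -0.12, and its 3 single-symbol probe sets ran from -0.14 to -0.04. *Hspa1a*, the classic heat-inducible HSP70, had 8.13 after ND αCD4 and 8.09 after isotype control, not far above background, with a log2 ratio of 0.05. A brighter probe set annotated to both *Hspa1a* and *Hspa1b*, whose transcripts are near-identical, gave 9.49 after ND αCD4 and 9.37 after isotype control, a log2 ratio of 0.12. Neither probe set placed the inducible HSP70 genes below 0.

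Of the HSP90 genes, *Hsp90aa1* was the lowest. It encodes the inducible cytosolic HSP90, and its signal was 12.22 in the ND αCD4 array and 12.65 in the isotype control array, 1.35-fold lower. Its 3 probe sets gave log2 ratios from -0.50 to -0.44, and fewer than 2% of detected genes (1.91%) had a lower ratio than the one used. Whether all 3 read the same gene copy was not determined. The same holds for the other genes with several single-symbol probe sets, *Hspd1*, *Hspe1*, *Hspa8*, *Dnaja1* and *Hspb1*. *Hsp90b1*, the HSP90 of the endoplasmic reticulum (ER), had 11.83 after ND αCD4 and 11.98 after isotype control, a log2 ratio of -0.16.

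Of the 7 detected co-chaperones of HSP90 and HSP70, 6 had a log2 ratio below 0. *Stip1*, which encodes HOP, the adaptor that hands clients from HSP70 to HSP90, had 11.48 in the ND αCD4 array and 11.96 in the isotype control array, 1.40-fold lower. *Ahsa1*, which encodes AHA1, the activator of the HSP90 ATPase, had 11.35 after ND αCD4 and 11.76 after isotype control, 1.32-fold lower. *Ppid*, the cyclophilin 40 partner of HSP90, had 10.21 after ND αCD4 and 10.57 after isotype control, 1.28-fold lower. These were the 3 members of the co-chaperone family past 1.2-fold, a rule that took 5.79% of all detected genes as lower. *Fkbp4*, the immunophilin FKBP52, had a log2 ratio of -0.20, *St13*, the HSP70-interacting protein HIP, of -0.18, and *Chordc1*, an HSP90 partner known as morgana, of -0.13. *Bag3*, an HSP70 exchange factor that directs clients to autophagy and is induced by heat, had 9.06 after ND αCD4 and 8.92 after isotype control. Its log2 ratio of 0.14 was the highest of the 41 genes by the probe sets used. Of 22 other detected HSP90 and HSP70 partners, 18 had a log2 ratio below 0, against 52.7% of all detected genes. The median of the 22 was -0.06. By the 1.2-fold rule 2 of them were lower, where it took 5.79% of all detected genes. These 2 were the HSP70 exchange factor *Hspbp1* (-0.32) and *Nudc* (-0.28), and the next lowest was *Ppp5c*, a phosphatase bound to HSP90, at -0.22.

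**Figure D2:**
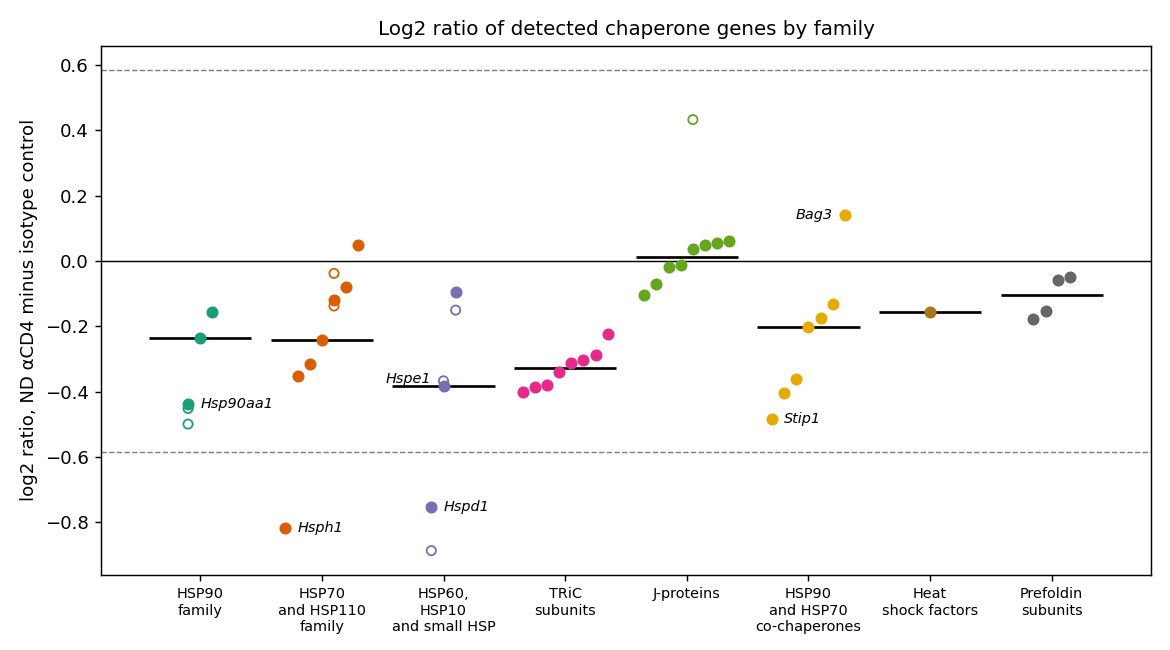
Log2 ratio (vertical axis, ND αCD4 minus isotype control) for the detected chaperone genes by family. Filled points are the probe set used for each gene, open points its other single-symbol probe sets, black bars the family medians, and dashed lines a 1.5-fold difference. The TRiC subunits lie between -0.40 and -0.22, and the filled points of the J-proteins between -0.10 and 0.06.

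The 8 subunits of TRiC, which folds actin and tubulin, were lower together and by similar amounts. The lowest ratio was that of *Cct3*, with 11.67 in the ND αCD4 array and 12.07 in the isotype control array, 1.32-fold lower. *Cct8* had 10.45 after ND αCD4 and 10.84 after isotype control, and *Cct4* had 11.72 after ND αCD4 and 12.10 after isotype control. These 3 subunits had the lowest ratios of the ring. *Tcp1* had 11.43 after ND αCD4 and 11.77 after isotype control. *Cct7* had 11.55 after ND αCD4 and 11.86 after isotype control, and *Cct5* had 11.72 after ND αCD4 and 12.02 after isotype control. *Cct6a* followed with a log2 ratio of -0.29. *Cct2*, with 12.35 after ND αCD4 and 12.57 after isotype control, was the subunit nearest to 0, at 1.17-fold lower. The 8 log2 ratios had a median of -0.33 and an SD over subunits of 0.06, against an SD of 0.17 over all detected genes. The SD was about as small over the J-proteins (0.062) and the prefoldin subunits (0.065). Of all detected genes, 2.31% had a lower ratio than *Cct3* and 8.36% a lower one than *Cct2*. None of the 8 reached 1.5-fold and 7 were at least 1.2-fold lower. These rules took 1.01% and 5.79% of all detected genes as lower.

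Prefoldin, which passes unfolded actin and tubulin to TRiC, differed less. Its 4 listed subunits had log2 ratios of -0.18 (*Pfdn1*), -0.15 (*Pfdn4*), -0.06 (*Pfdn5*) and -0.05 (*Pfdn2*), all below 0 and none past 1.2-fold. *Pfdn6* (0.01) and *Vbp1* (0.02), the remaining subunits, were near 0. Of 13 other detected partners of TRiC and prefoldin, these 2 included, 10 had a log2 ratio below 0, against 52.7% of all detected genes. None of the 13 reached 1.2-fold, and their median was -0.09. The lowest was *Txndc9*, a phosducin-like partner of TRiC, at -0.21. Of 12 listed actin and tubulin genes, which TRiC serves, 8 were measured, all of them detected. Of these 8, 4 had a log2 ratio below 0 and 4 above 0. By the 1.2-fold rule 3 were higher, where it took 2.85% of all detected genes. None was lower, where it took 5.79%. The 8 included *Actb* at -0.06, *Tubb5* at -0.08, *Tuba1a* at 0.38 and *Tubb2a* at 0.46. *Tubb2b* had 10.21 after ND αCD4 and 9.42 after isotype control, 1.72-fold higher.

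J-proteins, which bring clients to HSP70 and start its ATP cycle, were the one family with a median not below 0. The 8 listed members ran from -0.10 to 0.06 with a median of 0.01, and 4 lay on each side of 0. *Dnajb1*, the heat-inducible HSP40, had 10.44 in the ND αCD4 array and 10.38 in the isotype control array. *Dnaja1* had 11.32 after ND αCD4 and 11.28 after isotype control, and *Dnaja2* had a log2 ratio of -0.07. *Dnaja1* was the gene whose single-symbol probe sets differed most, with a log2 ratio of 0.04 in the probe set used and of 0.43 in a dimmer one (9.82 after ND αCD4 and 9.38 after isotype control). *Dnajc2*, the ribosome-associated partner of *Hspa14*, was at 0.05, *Dnajb4* at 0.06, *Dnajc7* at -0.02 and *Dnajb6*, a suppressor of aggregation, at -0.01. *Dnajc7* changed sign, to 0.002, under quantile normalization. Of 24 other detected J-protein genes, 14 had a log2 ratio above 0, against 6170 of all 13222 detected genes. The median of the 24 was 0.04. By the 1.2-fold rule 2 of them were higher, where it took 2.85% of all detected genes, and none was lower, where it took 5.79%. These 2 were *Dnajc6*, a clathrin uncoating factor also known as auxilin, at 0.34 and *Dnajb14*, a J-protein of the ER membrane, at 0.29.

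**Figure D3:**
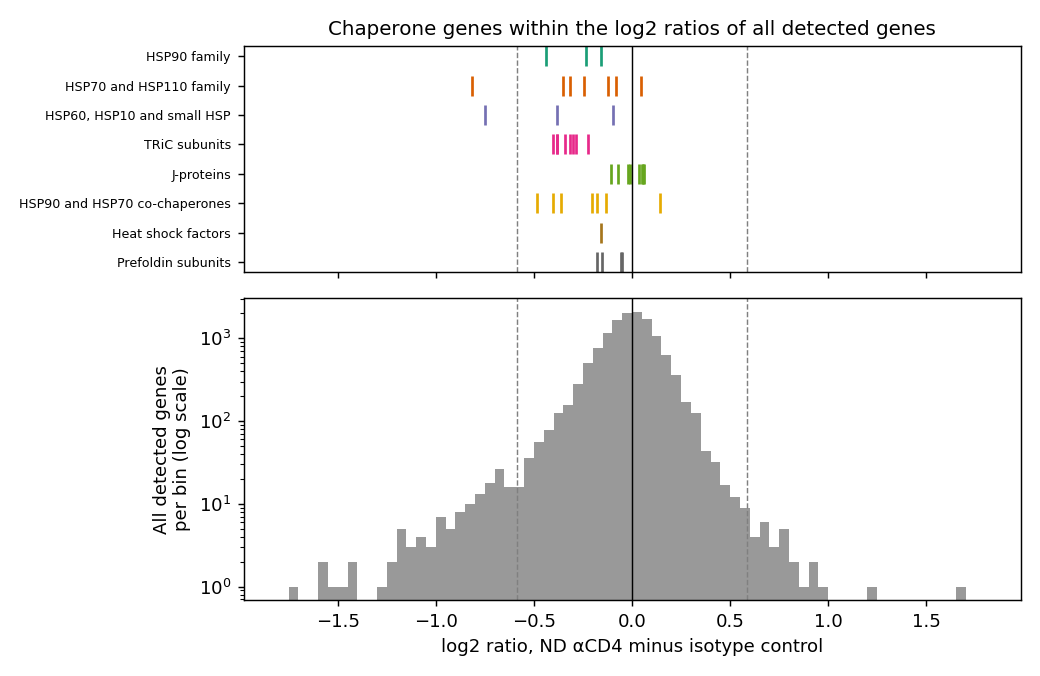
Log2 ratio (ND αCD4 minus isotype control, horizontal axis) of the detected chaperone genes by family (upper panel, 1 tick per gene) above the distribution over all 13222 detected genes (lower panel, genes per bin on a log scale), with dashed lines at a 1.5-fold difference. The ticks of the TRiC subunits lie left of 0 without overlap with those of the J-proteins, and both ticks beyond the left dashed line are *Hsph1* and *Hspd1*.

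Genes that heat shock factor 1 is known to induce leaned lower, though no more than the whole chaperone list, and did not all share a direction. Of 18 listed members commonly described as inducible, 16 were detected, 11 with a log2 ratio below 0 and 5 above 0. Their median was -0.13, against -0.18 over all 41 detected chaperone genes, of which 35 lay below 0. Over all detected genes the median was -0.01. By the 1.2-fold rule 6 of the 16 were lower, where it took 16 of the 41 chaperone genes and 5.79% of all detected genes. None was higher, where it took 2.85%. The 6 were *Hsph1*, *Hspd1*, *Stip1*, *Hsp90aa1*, *Ahsa1* and *Hspe1*. *Hspa1a*, *Dnajb1*, *Dnaja1*, *Dnajb4* and *Bag3* were above 0, at most at 0.14 (*Bag3*) by the probe sets used. A dimmer *Dnaja1* probe set gave 0.43. *Hspb1*, the inducible small heat shock protein HSP27, lay at background in both arrays. It had 7.65 after isotype control, against a limit of 7.64, and 7.55 after ND αCD4, against a limit of 7.56. No difference can be read from these values. *Hsf2*, the other heat shock factor listed, had 9.10 after ND αCD4 and 9.26 after isotype control, a log2 ratio of -0.16. Of 10 other detected small heat shock proteins and heat shock factors, 5 lay on each side of 0 and none reached 1.2-fold. The chaperones of the ER had a median of -0.12 over 16 detected genes, 15 of them below 0, against 52.7% of all detected genes. At least 1.2-fold lower, where the rule took 5.79%, were *Sdf2l1* (-0.42), *Pdia6*, a disulfide isomerase (-0.39), and *Creld2* (-0.37). *Dnajb9*, a J-protein of the ER, had 10.99 after ND αCD4 and 10.48 after isotype control, 1.43-fold higher.

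Proliferation markers and immediate early genes differed between the same arrays by more. Of 9 detected proliferation markers, 7 were above background in both arrays and at least 1.5-fold lower after ND αCD4, among them *Rrm2*, *Ccna2* and *Top2a*. The 1.5-fold rule took 1.01% of all detected genes as lower. *Birc5* was below background after ND αCD4 (7.51, against 8.12 after isotype control) and at least 1.47-fold lower. The median log2 ratio of the 9 was -1.24. Their summed linear signal was 10303 in the ND αCD4 array and 17334 in the isotype control array. Of 13 genes known to respond to cell handling within minutes, 4 were at least 1.5-fold higher, where that rule took 0.212% of all detected genes. The 3 highest were *Jun* (1.66), *Ppp1r15a* (0.99) and *Klf6* (0.69), and none of the 13 was lower by that rule. The summed linear signal of the 13 was 27906 in the ND αCD4 array and 20500.2 in the isotype control array. The part of either group of genes in the chaperone values was not tested.

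**Figure D4:**
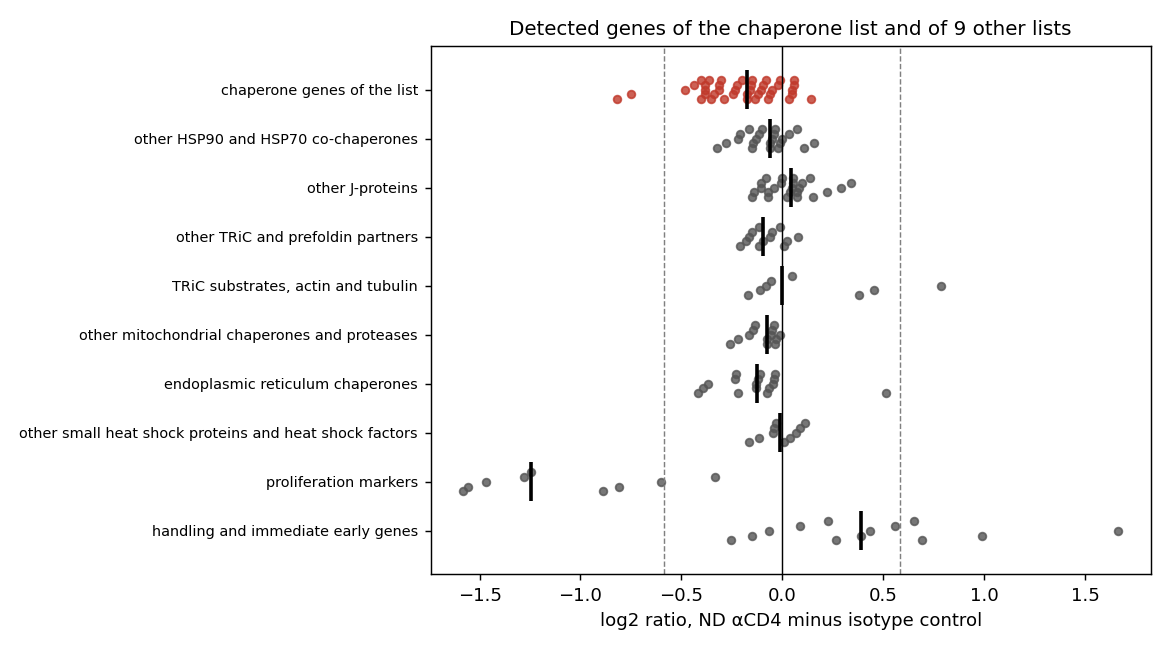
Log2 ratio (ND αCD4 minus isotype control, horizontal axis) for all detected genes of the chaperone list (red) and of 9 other gene lists (grey), with list medians as black bars and dashed lines at a 1.5-fold difference. The chaperone median is at -0.18, that of proliferation markers at -1.24 and that of handling and immediate early genes at 0.39. Points are spread vertically for legibility.

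The promoter letters were then counted over the list. A gene was counted if any of its windows held a match. A 2-unit element was found in 14 of the 33 detected genes with a window (42.4%). It was found in 13.7% of all detected genes with a window and in 17% of all genes with a window. A 3-unit element was found in 5 of the 33 (15.2%), *Hsph1*, *Hspd1*, *Hspe1*, *Chordc1* and *Dnajb6*, against 0.523% of detected genes and 0.662% of all genes. *Hsph1* had a log2 ratio of -0.82 and *Dnajb6* one of -0.01, so genes with the longer element did not share a value. Over all 55 detected genes with a 3-unit element the median log2 ratio was -0.02, against -0.38 over these 5 and -0.16 over the 28 chaperone genes without one. The -0.38 is the value of *Hspe1* itself, and *Hspe1* and *Hspd1* are counted for the same stretch of bases. The log2 ratios of the 14 genes with a 2-unit element had a median of -0.17 and ran from -0.82 to 0.14, and those of the 19 without had a median of -0.16 and ran from -0.48 to 0.06. An E-box was found in 3 of the 33, *Hsph1*, *Hspd1* and *Hsf2* (9.09%), against 11.3% of detected genes and 8.09% of all genes. Both genes past 1.5-fold are among these 3, so their median log2 ratio of -0.75 is the value of *Hspd1* itself. Over the 30 chaperone genes without an E-box the median was -0.15. The E-box of *Hspd1* lies before another of its annotated starts than its heat shock element does. Over all 1190 detected genes with an E-box the median was -0.01, as over those without (-0.01). A match is a description of the letters and not evidence that a factor binds there.

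**Figure D5:**
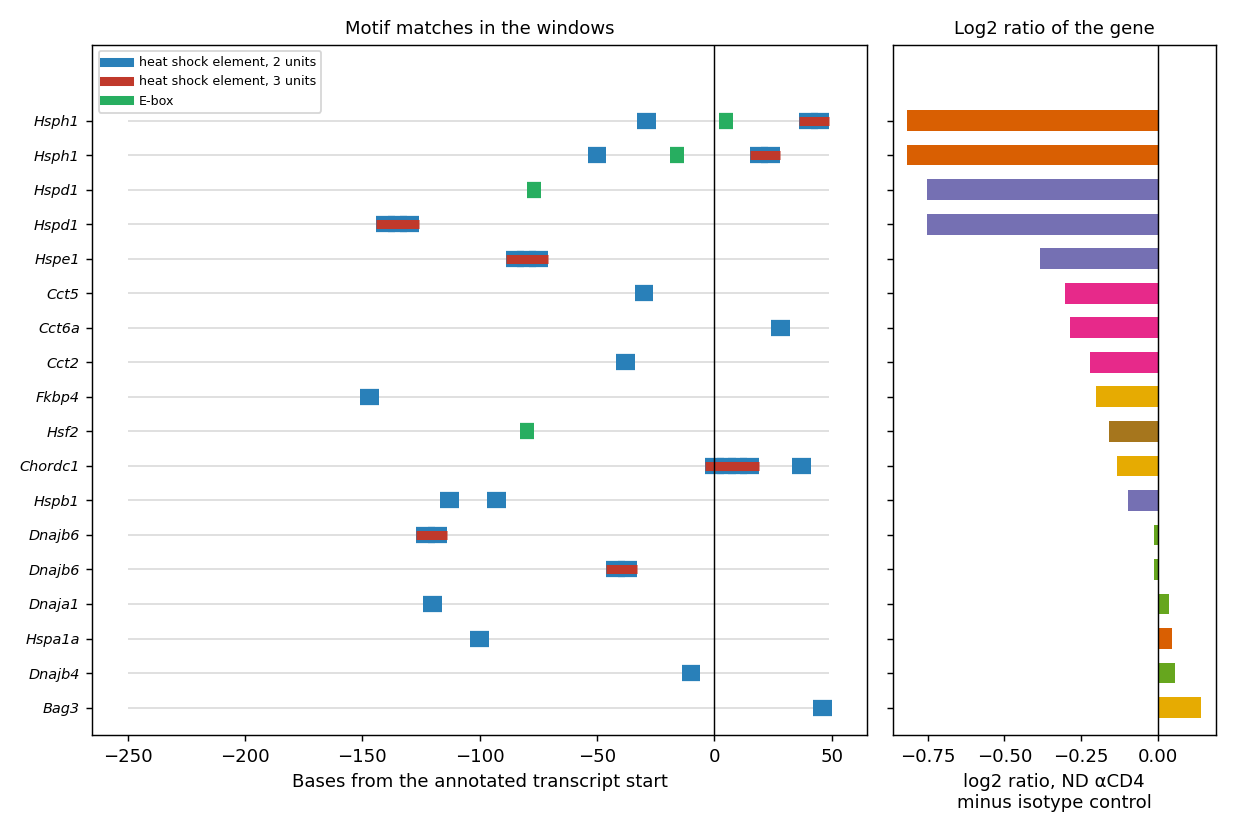
Left, positions of motif matches in bases from the annotated transcript start (horizontal axis), 1 line for each window of a detected chaperone gene that holds a match (a gene with 2 starts can have 2 lines), with 2-unit heat shock elements in blue, 3-unit ones in red and E-boxes in green. Right, log2 ratio of the same gene (ND αCD4 minus isotype control), with bars coloured by family. Genes with a 3-unit element run from *Hsph1* at -0.82 to *Dnajb6* at -0.01.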

How the data were processed

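The authors deposited log2 signals for 35557 probe sets on 2 arrays. Affymetrix Expression Console is named in the submitters' processing notes. Its version, background correction and normalization were not stated there. The log2 scale was inferred from the values, which ran from 2.52 to 14.7. The probe set identifiers belong to an earlier mouse gene ST design than the methods name. Probe sets were named through the platform annotation, and 21789 had 1 symbol. Background came from 1210 receptor probe sets. Precision is limited by having 1 array per condition. Members and lists were chosen with earlier results of these data known, and the 1.2-fold rule and the signal limit of 11 after values were seen. Any member could be named, with up to 3 detected genes of largest absolute log2 ratio per other list. *Grpel1*, *Lonp1*, *Clpp*, *Pfdn6*, *Vbp1*, *Actb*, *Tubb5*, *Birc5* and the undetected markers were chosen after their values were seen. The scripts were tested on simulated data. Protein features were not analysed. The software was Python 3.11.15 with pandas 2.3.3, numpy 2.4.6, matplotlib 3.10.9 and, for lowess, statsmodels 0.14.6.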

Additional observations from a re-analysis of the deposited data

How the results depend on the processing

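Values were recomputed with 3 other scalings (median centring, lowess correction, quantile normalization), with values floored at background, with 3 other detection rules (none, both arrays, background at the 99th percentile) and with other probe sets (mean of all single-symbol ones, or several-symbol ones added). Under each of these 2 genes were at least 1.5-fold lower and none higher, the median over the chaperone genes ran from -0.20 to -0.18, and that over TRiC subunits from -0.33 to -0.31. The count at least 1.2-fold lower ran from 16 to 17. With a 2-fold rule no gene was lower (0), and with the added 1.2-fold rule 16 were. The median of the HSP60, HSP10 and small HSP family was -0.60 with the mean of probe sets and -0.57 with detection in both arrays or the stricter background, as *Hspb1* then drops out and 2 genes are left. *Dnaja1* was at 0.23 with the mean of its probe sets. As there are no replicates, a shift was counted when it exceeded 0.0929, the SD between probe sets of 1 gene over 550 genes, which does not cover differences between mice. No paired analysis was possible because each condition has 1 array.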
